A study of Mus musculus with 5 samples.

Results

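The genes examined here make, fold, move and remove proteins in the endoplasmic reticulum (ER), or sense when folding there falls behind. They were 39 genes chosen by symbol from a deposited table of 46983 genes, and every symbol matched a single row. By role they were 5 sensors with their transcription factor, 17 chaperones and folding enzymes, 7 genes of the translocon and 10 genes of ER-associated degradation. All 39 passed the filter on low counts and so were among the 16436 genes tested. The list was put together by people and programs that knew the fold changes and calls of this comparison. Each member's difference between genotypes is therefore given as a description, without a p-value, and the counts of called members are no independent evidence. Transcripts came from Kupffer cells, the resident macrophages of the mouse liver, sequenced as poly-A RNA. The genotypes were ID3-/- (2 libraries, replicates 2 and 3) and ID3+/- (3 libraries, replicates 1, 2 and 3), so the comparison group already lacked 1 copy of Id3, which encodes an inhibitor of helix-loop-helix transcription factors. The sources used here do not give strain, sex, the structure of the deleted allele or the cells that lost it. The labels give no age either, and the deposited column names carry an unexplained "3w". Nothing says that the libraries came from separate animals, so their spread may be technical.

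Secreted and membrane proteins enter the ER through the Sec61 channel and fold there with the help of the Hsp70 chaperone BiP, encoded by Hspa5, the Hsp90 family member Grp94, encoded by Hsp90b1, the lectins calnexin and calreticulin, and protein disulphide isomerases. Proteins that fail to fold are trimmed, drawn back through the membrane and degraded. When unfolded proteins accumulate, the sensors IRE1, PERK and ATF6 start the unfolded protein response: IRE1 splices the messenger RNA of the transcription factor XBP1, PERK slows translation and favours the factor ATF4, and ATF6 is cut in the Golgi and enters the nucleus. ATF6 and XBP1 induce chaperone and degradation genes, many through the ER stress response element (ERSE).

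The ERSE consists of CCAAT and CCACG, 9 bases apart. It was searched on both strands of the RefSeq promoter windows of build GRCm38.p6, which run from 250 bases before to 50 bases after each transcript start. Of the 39 genes, 33 had a window, and 9 of these (27.3%) held an exact ERSE, against 37 of the 27025 genes with a window (0.137%). The 6 genes without a window were Atf6, Hyou1, Manf, Sec61a1, Ssr2 and Derl1. A related element, ERSE-II, is ATTGG and CCACG with 1 base between them, and it was found in Dnajb11 and Herpud1, against 12 of all 27025 genes (0.0444%). No member held both motifs. With any spacing from 7 to 11 bases CCAAT and CCACG were again found in 9 of the 33 genes, against 77 of 27025 (0.285%). A match is a stretch of letters and not a measured binding site. The sites are shown because the genes that carry them include the largest chaperone differences below and also genes with little difference. Capitals mark the pentamers and each site is written 5′ to 3′ in the direction of the motif.
Hspa5 (chromosome 2): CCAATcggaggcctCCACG
Hsp90b1, site 1 (chromosome 10): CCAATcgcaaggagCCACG
Hsp90b1, site 2 (chromosome 10): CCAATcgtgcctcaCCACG
Dnajc3 (chromosome 14): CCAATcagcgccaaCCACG
Canx (chromosome 11): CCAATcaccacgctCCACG
Pdia6 (chromosome 12): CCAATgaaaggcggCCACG
Calr (chromosome 8): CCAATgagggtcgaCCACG
Derl3 (chromosome 10): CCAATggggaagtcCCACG
Creld2 (chromosome 15): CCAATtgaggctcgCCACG
Syvn1 (chromosome 19): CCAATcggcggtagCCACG
Herpud1, ERSE-II (chromosome 8): ATTGGgCCACG
Dnajb11, ERSE-II (chromosome 16): ATTGGcCCACG

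The centres of the ERSE sites lay between position -203 (Hsp90b1, site 1) and position -35 (Syvn1) relative to the transcript start, and in Hspa5 at position -56. The promoter windows of Hspa5 and Creld2 are printed whole because both hold 1 exact ERSE while their transcripts differed between genotypes to very different degrees. Matches with a changed base were not searched for, so the windows need not be equal in ERSE-like sites. Capitals mark the ERSE, which in Creld2 lies on the opposite strand and so reads in reverse complement. The Hspa5 window is chr2:34771840-34772139 on the plus strand, and that of Creld2 is chr15:88819396-88819695 on the plus strand.
Hspa5: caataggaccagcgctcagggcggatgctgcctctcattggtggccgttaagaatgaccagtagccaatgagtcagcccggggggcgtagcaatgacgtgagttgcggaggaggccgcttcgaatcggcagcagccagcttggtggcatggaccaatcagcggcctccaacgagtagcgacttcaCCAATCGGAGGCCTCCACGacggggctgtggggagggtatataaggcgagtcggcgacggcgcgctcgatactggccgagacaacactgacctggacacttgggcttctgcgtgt
Creld2: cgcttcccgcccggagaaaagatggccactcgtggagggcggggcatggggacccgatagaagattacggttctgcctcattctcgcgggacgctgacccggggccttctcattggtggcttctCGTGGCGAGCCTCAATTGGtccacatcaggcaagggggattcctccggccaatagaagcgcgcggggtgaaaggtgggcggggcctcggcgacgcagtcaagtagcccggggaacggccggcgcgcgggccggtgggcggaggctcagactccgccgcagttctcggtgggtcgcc

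The libraries held 75.8M to 77.3M counts in genes in ID3-/- cells and 74.8M to 80.9M in ID3+/- cells. Id3 was at 1.01 and 1.42 CPM (counts scaled to library size with the trimmed mean of M-values) in the ID3-/- libraries and at 221 to 256 CPM in the ID3+/- libraries, so each library matched its label. The 12 Kupffer cell markers summed to 67080 and 73728 CPM in ID3-/- and 61201 to 67445 CPM in ID3+/- cells, with 3 called higher and 0 lower. The most abundant of them, Clec4f, had the other order without a call, at 15649 and 13582 CPM in ID3-/- against 16457 to 17237 CPM in ID3+/- libraries. The summed level of 14 hepatocyte markers was 4535 CPM in ID3-/- replicate 2 and 11249 CPM in ID3-/- replicate 3, against 21708 to 25696 CPM in ID3+/- cells, with 10 of the 14 called lower and none at 0 in either genotype. That of 14 immediate-early and dissociation genes was 2409 and 2981 CPM against 974 to 1015 CPM, with 11 called higher. Mitochondrially encoded genes took 0.90% and 1.01% of counts against 4.08% to 4.54%. The sum of 12 neutrophil markers was 142 and 359 CPM against 77.0 to 82.0 CPM, with 7 of 9 tested called higher. The T and NK cell and monocyte and dendritic cell sums were also higher in both ID3-/- libraries, with 1 of 10 genes called higher and 0 lower in each list. Cd4 made up 39.4 of the 72.6 CPM of the T and NK sum in ID3-/- replicate 3 and 23.4 of 64.8 CPM in ID3+/- replicate 1. Without Cd4 the order of these libraries would reverse. The B and plasma cell sum, 401 and 692 CPM in ID3-/- against 331 to 473 CPM in ID3+/- cells, overlapped. So did that of 10 sinusoidal endothelium markers, 886 and 958 CPM in ID3-/- against 947 to 1146 CPM in ID3+/- cells, although 4 of the 10 were called lower and 0 higher. The part of these in the results below was not tested. Fewer cells of a type and less RNA per cell cannot be told apart in such bulk libraries.

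Most of the members that differed were chaperones and folding enzymes, and those were lower in ID3-/- cells. Over all 39 genes, 3 were called higher and 12 lower (edgeR quasi-likelihood test, Benjamini-Hochberg adjusted p under 0.05 over all genes tested), where 16.4% of all genes tested were called, 6.41% higher and 10.0% lower. Of the 17 chaperones and folding enzymes, 9 were called lower and 0 higher, also 0 at an unadjusted p under 0.05 and 0 by limma-voom and DESeq2. With upper-quartile scaling 6 members were higher and 12 lower, where 1443 of all genes were called higher and 1499 lower. Of the 7 translocon genes 1 was called higher, of the 10 degradation genes 1 higher and 2 lower, and of the 5 sensors 1 higher and 1 lower. The median log2 fold change was -0.51 for chaperones and folding enzymes, 0.27 for the translocon, 0.04 for degradation and 0.00 for the sensors, beside -0.02 over all genes tested. Both ID3-/- libraries were below every ID3+/- library in 19 of the 39 genes and above every one in 6, where the genotypes were likewise apart in 51.5% of all genes tested, 26.9% below and 24.6% above. Summed over the 17 chaperones, the level was 4856 and 5268 CPM in the ID3-/- libraries and 6830, 7133 and 7233 CPM in the ID3+/- libraries. The translocon genes summed to 1060 and 1116 CPM in ID3-/- and 949 to 1009 CPM in ID3+/- cells.

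**Figure D1:**
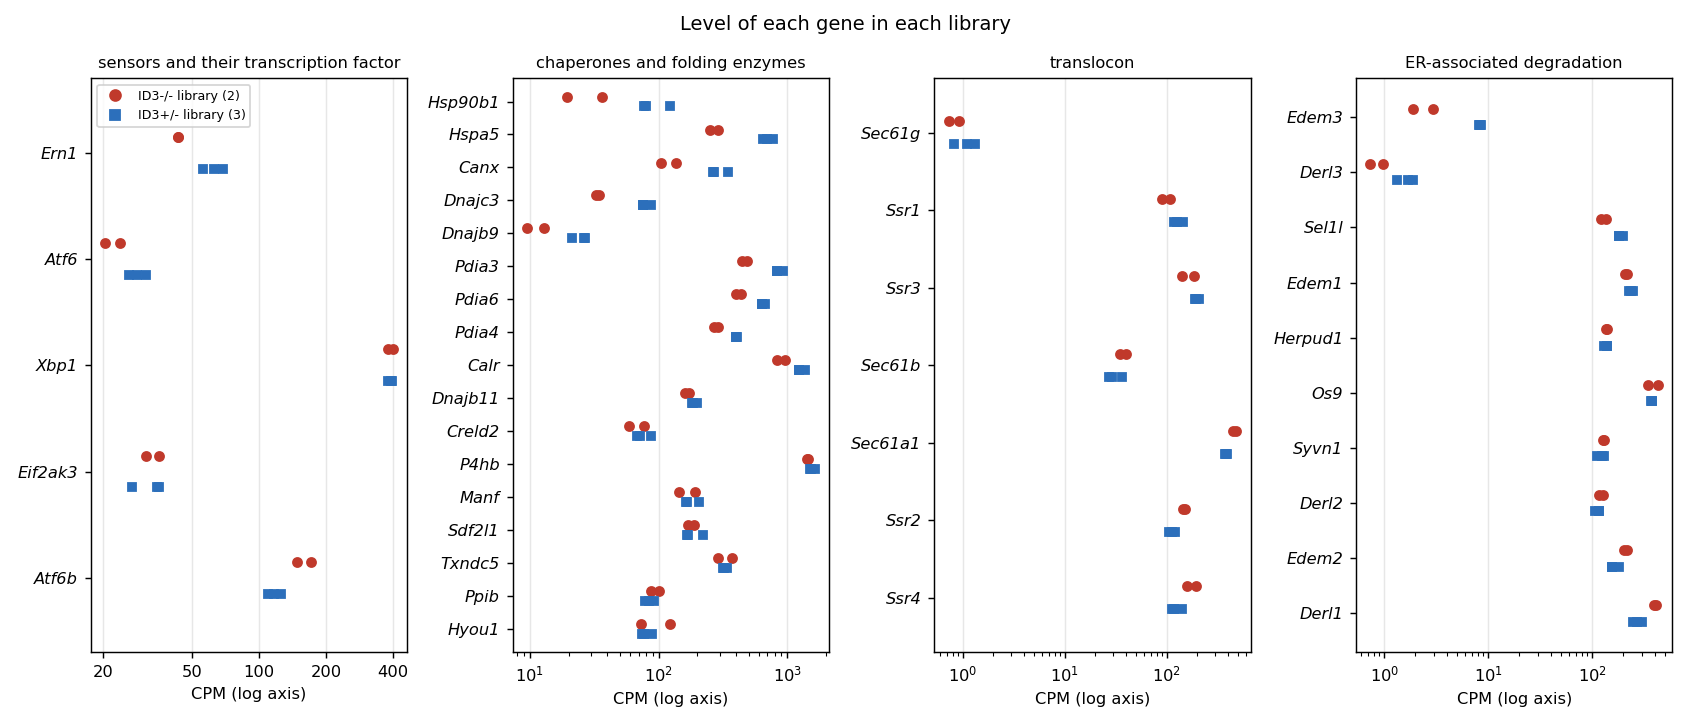
Level of each of the 39 genes in each library, in CPM on a log axis, with genes in 4 panels by role and ordered by fold change. Red circles are the 2 ID3-/- libraries and blue squares the 3 ID3+/- libraries; among the chaperones the circles lie left of all squares in the 10 uppermost genes and in P4hb.

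The chaperone with the largest absolute difference in counts was Hspa5. Its product BiP binds nascent chains and holds the sensors inactive. Hspa5 stood at 249.6 and 290.9 CPM in the ID3-/- libraries and at 691, 779 and 649 CPM in the ID3+/- libraries. The lowest ID3+/- library thus held more than either ID3-/- library, and the log2 fold change was -1.39 ± 0.12 (SE, n = 2 and 3), a level of 38.3% of that in ID3+/- cells. Hsp90b1, which encodes Grp94, a chaperone of Toll-like receptors and integrins, was at 19.5 and 36.0 CPM in ID3-/- against 76.8, 122 and 80.2 CPM in ID3+/- libraries (-1.75 ± 0.33). Relative to its mean it was the most variable called chaperone within ID3-/- cells, and 15.7% of its annotated exon bases overlap other genes, where reads can be left uncounted as ambiguous. Canx, the membrane-bound lectin calnexin, was at 105 and 136 CPM in ID3-/- and 269, 345 and 265 CPM in ID3+/- libraries (-1.28 ± 0.17). Its soluble relative Calr was far more abundant and differed less, at 832 and 959.6 CPM in ID3-/- against 1232, 1234 and 1366 CPM in ID3+/- libraries (-0.51 ± 0.10).

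The J-domain partners of BiP split. Dnajc3, also known as p58IPK and an inhibitor of PERK, was at 32.8 and 34.7 CPM in ID3-/- libraries and at 75.4, 86.5 and 75.5 CPM in ID3+/- libraries (-1.23 ± 0.11). Dnajb9, which restrains IRE1 and is a known target of spliced XBP1, was at 9.48 and 12.9 CPM in ID3-/- against 26.6, 26.4 and 21.1 CPM in ID3+/- libraries (-1.15 ± 0.20). In both genes each ID3-/- library was below each ID3+/- library. Dnajb11, another partner, was at 161 and 172 CPM in ID3-/- and 181, 184 and 197 CPM in ID3+/- libraries (-0.17 ± 0.09) and was not called.

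Among the disulphide isomerases, which form and rearrange disulphide bonds, 3 of 5 were called lower. Pdia3, which works with calnexin and calreticulin on glycoproteins and in the loading of MHC class I, was at 445 and 487 CPM in ID3-/- against 824, 933 and 831 CPM in ID3+/- libraries (-0.89 ± 0.10). Pdia6 was at 402 and 436 CPM against 637, 634 and 674 CPM (-0.63 ± 0.09), in the same order of genotypes, and Pdia4 at 269.5 and 289.7 CPM against 399, 400.1 and 409 CPM (-0.53 ± 0.08). P4hb, the founding isomerase and the most abundant member per length, was at 1428 and 1445 CPM in ID3-/- against 1536, 1509.9 and 1629 CPM in ID3+/- libraries (-0.12 ± 0.08) and was not called, although its genotypes did not overlap. Txndc5 averaged 328.5 ± 58.8 CPM in ID3-/- and 328 ± 12.5 CPM in ID3+/- cells (SD, n = 2 and 3). The prolyl isomerase cyclophilin B gene, Ppib, was not called either (0.15 ± 0.11), and 25.0% of its exon bases overlap other genes.

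Several chaperone genes known to respond to ER stress were not called. Sdf2l1, which keeps substrates in the cycle of BiP, was at 168 and 188 CPM in ID3-/- and 167, 169 and 222 CPM in ID3+/- libraries (log2 fold change -0.06 ± 0.15). Manf, a secreted protein that binds BiP, was at 144 and 192 CPM in ID3-/- and 164, 166 and 205 CPM in ID3+/- libraries (-0.09 ± 0.16), and Creld2 was at 58.9 and 77.7 CPM against 67.6, 71.8 and 87.0 CPM (-0.14 ± 0.17). Hyou1, the exchange factor and large Hsp70 relative Grp170, was at 72.7 and 122 CPM in ID3-/- against 74.0, 76.5 and 88.4 CPM in ID3+/- libraries (0.29 ± 0.22). In these 4 genes the genotypes overlapped. Replicate 2 was below replicate 3 in ID3-/- cells, and replicate 3 was the highest of the ID3+/- libraries. For Sdf2l1 the SD was 14.1 CPM in ID3-/- and 31.3 CPM in ID3+/- cells (n = 2 and 3).

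**Figure D2:**
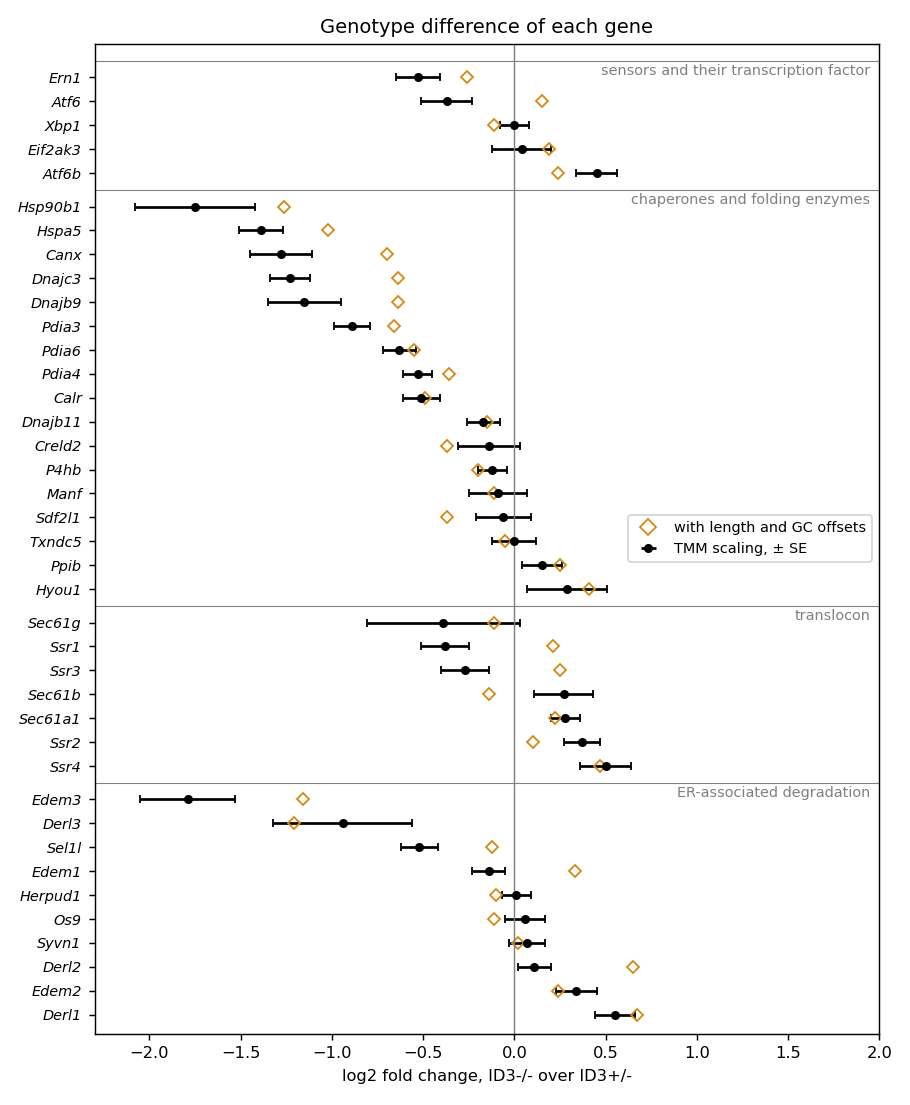
Log2 fold change of each gene, ID3-/- over ID3+/-, with its SE (black circles and bars) and after offsets for transcript length and GC content (open diamonds), by role. The 9 called chaperones lie between -1.75 and -0.51, and the diamonds of Hspa5 and Hsp90b1 lie at -1.02 and -1.26.

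The 2 ID3-/- libraries differed from each other in one direction across the chaperones. Replicate 2 was below replicate 3 in 16 of the 17 chaperones and folding enzymes, with Txndc5 the exception, and in 28 of all 39 members, while it was below in 51.2% of all genes with counts in both. The median log2 ratio of replicate 2 to replicate 3 was -0.21 in the chaperones and -0.01 over all genes. The hepatocyte marker sum was also lower in replicate 2 (4535 CPM) than in replicate 3 (11249 CPM), and its part in the order of the libraries was not tested.

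**Figure D3:**
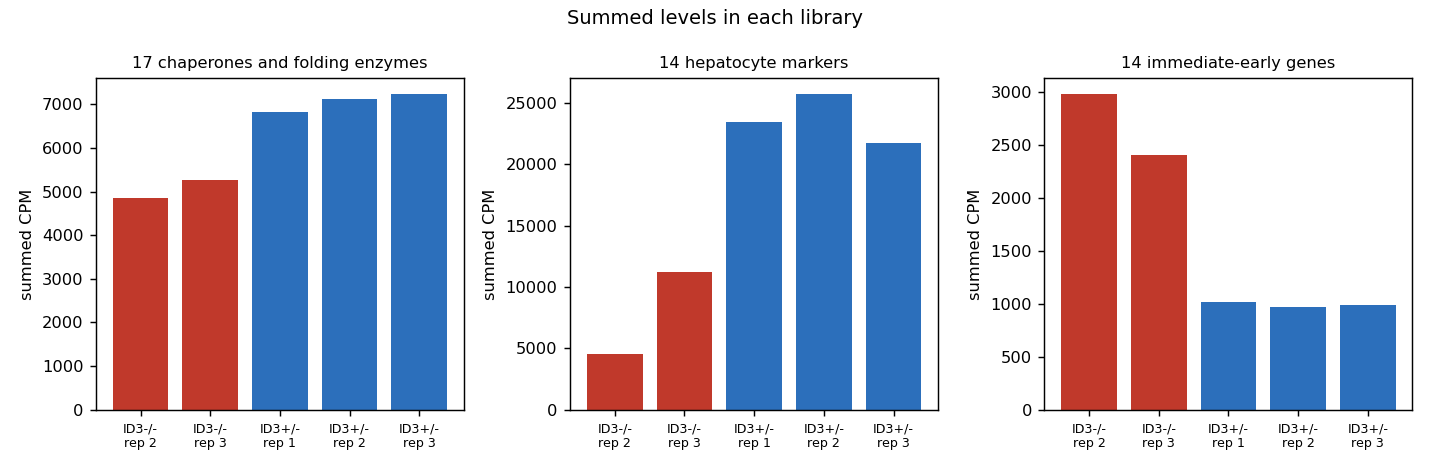
Summed CPM in each library of the 17 chaperones and folding enzymes, of 14 hepatocyte markers and of 14 immediate-early genes, with ID3-/- libraries in red and ID3+/- libraries in blue. The chaperone sum is 4856 and 5268 CPM in the ID3-/- libraries and at least 6830 CPM in each ID3+/- library, and the hepatocyte sum has the same order of genotypes.

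The sensors and Xbp1 had log2 fold changes between -0.53 and 0.45. Ern1, the gene of IRE1, was at 43.4 and 43.2 CPM in ID3-/- libraries and at 55.9, 68.7 and 63.1 CPM in ID3+/- libraries, with a log2 fold change of -0.53 ± 0.12, and was called lower. Eif2ak3, the gene of PERK, was at 31.2 and 35.5 CPM in ID3-/- and 34.9, 35.8 and 26.9 CPM in ID3+/- libraries (0.04 ± 0.16), so the genotypes overlapped. Atf6 was at 20.4 and 23.8 CPM against 28.5, 31.1 and 26.0 CPM (-0.37 ± 0.14) and was not called, whereas its paralog Atf6b was at 172 and 149 CPM against 116, 109.6 and 126 CPM (0.45 ± 0.11) and was called higher. Xbp1, the factor downstream of IRE1, had overlapping levels, at 379 and 399 CPM in ID3-/- and 394, 381 and 396 CPM in ID3+/- libraries. Counts per gene do not separate spliced from unspliced Xbp1 messenger RNA, so the activity of IRE1 was not measured.

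In the translocon the genes of the channel and of the translocon-associated protein complex did not move as 1 block. Sec61a1, the pore subunit, was at 482 and 444 CPM in ID3-/- and 379, 374 and 390.2 CPM in ID3+/- libraries (log2 fold change 0.28 ± 0.08), above in each library but not called. Sec61b was at 35.2 and 39.7 CPM against 29.2, 27.4 and 36.5 CPM (0.27 ± 0.16). The genes of the associated complex, Ssr1 to Ssr4, pointed in both directions: Ssr2 rose (0.37 ± 0.10) and Ssr4 had 0.50 ± 0.14 without a call, whereas Ssr1 (-0.38 ± 0.13) and Ssr3 (-0.27 ± 0.13) were below 0 without a call. Ssr4 was at 159 and 193 CPM in ID3-/- and at 112, 119 and 143 CPM in ID3+/- libraries, which did not overlap. Sec61g, the smallest subunit, was at 0.729 to 0.930 CPM in ID3-/- and 0.816 to 1.33 CPM in ID3+/- cells. Its low level is uncertain, since 22.6% of its longest transcript has a copy of at least 95% identity in 4 annotated pseudogenes and reads with several alignments were not counted. Such copies cover 22.8% of Sec61b, in 3 other genes.

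Degradation genes held both the lowest and the highest log2 fold change of the set. Edem3, a mannosidase that marks misfolded glycoproteins, was at 2.94 and 1.90 CPM in ID3-/- against 8.52, 8.24 and 8.38 CPM in ID3+/- libraries (log2 fold change -1.79 ± 0.26). Its relatives had smaller differences: Edem1 was at 208 and 219 CPM against 247, 234 and 226 CPM (-0.14 ± 0.09), and Edem2 at 216 and 201 CPM against 156, 155 and 181 CPM (0.34 ± 0.11), neither of them called. Sel1l, the scaffold of the ubiquitin ligase complex, fell to 137 and 122 CPM in ID3-/- libraries, against 179, 197 and 182 CPM in ID3+/- libraries (-0.52 ± 0.10). Syvn1, the ligase Hrd1 held by that scaffold, was at 126.5 and 130.3 CPM in ID3-/- and 131, 111 and 125 CPM in ID3+/- libraries (0.07 ± 0.10).

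Derl1, a derlin of the retrotranslocation channel, was at 411 and 389.9 CPM in ID3-/- against 273, 246 and 300.2 CPM in ID3+/- libraries (log2 fold change 0.55 ± 0.11) and was called higher. The pseudogene Gm35638 holds a copy of part of its transcript. Derl2 was not called (0.11 ± 0.09), and Derl3, a derlin of secretory cells, was low at 0.968 and 0.737 CPM in ID3-/- against 1.90, 1.32 and 1.69 CPM in ID3+/- libraries. Herpud1, a strongly stress-induced membrane protein, was at 135 and 139.7 CPM in ID3-/- and 139, 139 and 131 CPM in ID3+/- libraries (0.01 ± 0.08). The lectin gene Os9 was at 431 and 346 CPM against 365, 379 and 373 CPM (0.06 ± 0.11).

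Set against the promoter sequences above, the 9 genes with an ERSE had log2 fold changes from -1.75 (Hsp90b1) to 0.07 (Syvn1), with a median of -0.94, and 6 of them were called lower. That median is the value of Derl3, uncalled and at 1.90 CPM or less in each library. All 6 called lower were chaperones and folding enzymes, so the motif classes also differ in role. The 22 members whose window held neither motif had a median of -0.09 and a range of -1.79 to 0.50, with 6 called lower and 1 higher. Over all genes tested 10.0% were called lower and 6.41% higher. With length and GC offsets the medians were -0.64 for the genes with an ERSE and -0.11 for those with neither motif. Both genes with ERSE-II lay near 0, Dnajb11 at -0.17 and Herpud1 at 0.01. Hspa5 and Creld2, whose windows are printed above, had -1.39 and -0.14. These medians describe the list and were not tested.

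Levels between genes were compared per kilobase of annotated exon. On that scale P4hb was the most abundant member, with 502 CPM per kb in ID3-/- and 545 CPM per kb in ID3+/- cells, followed in ID3+/- cells by Calr (311 in ID3-/- and 444 in ID3+/-), Pdia3 (148 and 275) and Pdia6 (112 and 173). Hspa5 was at 63.9 CPM per kb in ID3-/- and 167 CPM per kb in ID3+/- cells. Sdf2l1, with 161 and 168 CPM per kb, was beside Hspa5 in ID3+/- cells and above it in ID3-/- cells. Xbp1 had 120 CPM per kb in each genotype, more than the sensor genes Ern1 (5.30 and 7.66), Eif2ak3 (5.53 and 5.40) and Atf6 (2.39 and 3.09). Atf6b lay between them and Xbp1, with 58.1 CPM per kb in ID3-/- and 42.6 CPM per kb in ID3+/- cells. Derl1 was the most abundant derlin, with 120.4 CPM per kb in ID3-/- and 82.1 CPM per kb in ID3+/- cells.

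The differences followed the base composition of the transcripts to some degree. Across the 39 genes, which share the same 5 libraries, the log2 fold change was higher at higher GC content of the longest transcript (Pearson r = 0.63, Spearman rho = 0.61) and had r = -0.27 with log2 length (rho = -0.21). Among all genes tested, the 4098 with the lowest GC content, 27.5% to 45.3%, had a median log2 fold change of -0.44, and the 4097 with the highest, above 54.3%, had 0.27. The 9 members in the low class had a median of -1.15, and the 8 members in the high class 0.06. With offsets for length and GC content in each library, 2 members were called higher and 7 lower, where 9.21% of all genes were called, 4.49% higher and 4.72% lower. The 7 were Hspa5 (-1.02), Hsp90b1 (-1.26), Canx (-0.70), Pdia3 (-0.66), Dnajc3 (-0.64), Dnajb9 (-0.64) and Pdia6 (-0.55). The calls of Calr (-0.49), Pdia4 (-0.36), Edem3 (-1.16), Ern1 (-0.26), Sel1l (-0.12), Atf6b (0.24) and Ssr2 (0.10) were lost, that of Derl1 stayed (0.67) and Derl2 (0.65) was called higher.

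**Figure D4:**
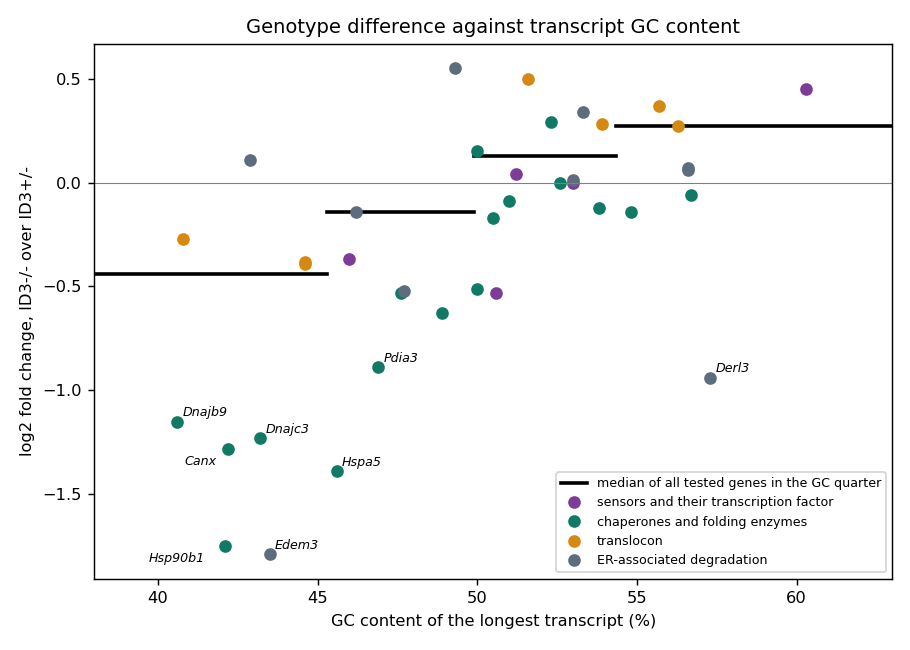
Log2 fold change of each member, ID3-/- over ID3+/-, against the GC content of its longest transcript in percent, coloured by role. Black lines are the medians of all genes tested in 4 equal classes of GC content, from -0.44 to 0.27; Hspa5, Canx, Dnajc3, Dnajb9, Hsp90b1 and Edem3 lie at or below -1.15.

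With 1 library left out, fewer genes passed the adjusted threshold across the whole table, while the fold changes of the called members kept their sign. Lower calls over all genes numbered 1644 with all 5 libraries, 675 without ID3-/- replicate 2, 1370 without ID3-/- replicate 3, 344 without ID3+/- replicate 1, 248 without ID3+/- replicate 2 and 1508 without ID3+/- replicate 3. Members called lower in these 5 fits numbered, in the same order, 7, 11, 4, 4 and 11. Hspa5, Canx, Dnajc3 and Pdia3 kept the call whichever library was left out, and Ern1 lost it each time. Among the chaperones 4 to 9 were called lower, and 9 had an unadjusted p under 0.05 in that direction in each of these fits. Log2 fold changes stayed between -1.49 and -1.28 for Hspa5, -1.26 and -1.16 for Dnajc3, -0.94 and -0.82 for Pdia3, -0.68 and -0.57 for Pdia6, -0.57 and -0.48 for Pdia4, and -0.61 and -0.41 for Calr. Wider ranges were those of Hsp90b1 (-2.25 to -1.37), Edem3 (-2.14 to -1.5), Dnajb9 (-1.37 to -0.94) and Canx (-1.47 to -1.11). The uncalled Hyou1 ran from -0.12 to 0.61. Higher calls over all genes numbered 1054 with all libraries, against 228 without ID3-/- replicate 2, 119 without ID3+/- replicate 1 and 87 without ID3+/- replicate 2, and in these 3 fits 0 members were called higher. Without ID3+/- replicate 3 there were 1032 over all genes and 5 among the members. Derl1 stayed between 0.49 and 0.63, Atf6b between 0.34 and 0.56, and Ssr2 between 0.33 and 0.43.

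Pathway genes outside the list were taken from 5 lists of textbook members, also written with earlier results of these data known. Of these, the list named after PERK and ATF4 had the most calls. Of its 12 genes, 7 rose and 1 fell in ID3-/- cells, with a median log2 fold change of 0.68, beside the 6.41% and 10.0% of all genes. Trib3, a pseudokinase induced by ATF4 and CHOP, was at 15.2 and 16.3 CPM in ID3-/- against 3.45, 2.59 and 2.49 CPM in ID3+/- libraries (2.47 ± 0.21, edgeR adjusted p = 0.00442). Asns, asparagine synthetase, was at 12.9 and 15.9 CPM against 3.93, 2.01 and 2.11 CPM (2.42 ± 0.34, edgeR adjusted p = 0.0122). Both genes were higher in each ID3-/- library than in any ID3+/- library. Counts per gene do not measure the activity of PERK, and the signal behind the rises in this list was not tested.

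Ppp1r15a, the phosphatase subunit Gadd34 that reverses the PERK signal, was at 73.5 and 68.2 CPM in ID3-/- against 37.1, 30.9 and 30.8 CPM in ID3+/- libraries (1.11 ± 0.12, edgeR adjusted p = 0.00782). Atf3 (1.22 ± 0.17, edgeR adjusted p = 0.0117), Sesn2 (0.83 ± 0.11, edgeR adjusted p = 0.011) and Atf4 itself (0.55 ± 0.11, edgeR adjusted p = 0.0273) also rose. Atf3 and Ppp1r15a are known immediate-early genes too, and the sum of immediate-early markers was higher in the same libraries. Ppp1r15b, the constitutive counterpart, was at 105 and 91.7 CPM against 104, 99.8 and 96.6 CPM and was not called (edgeR adjusted p = 0.893), nor was Eif2s1, which encodes the PERK substrate (-0.50 ± 0.14, edgeR adjusted p = 0.0549). The 1 gene that fell was Ddit4, an inhibitor of mTORC1 named here after its values were seen, at 34.1 and 23.3 CPM in ID3-/- against 102, 95.1 and 49.6 CPM in ID3+/- libraries (-1.52 ± 0.35, edgeR adjusted p = 0.0353). Trib3 and Ppp1r15a kept the call whichever library was left out. With length and GC offsets 7 were higher and 1 lower, where 4.49% of all genes were called higher and 4.72% lower. Atf4 was then no longer called (0.37). Ddit3, the gene of CHOP, named here after its values were seen, was called higher (0.71, against 0.61 without offsets and no call). With 1 ID3+/- library left out, 4 genes of the list were higher without replicate 1, 2 without replicate 2 and 6 without replicate 3. The higher calls over all genes in these fits are given above. The list's median stayed between 0.59 and 0.76 whichever library of either genotype was left out.

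**Figure D5:**
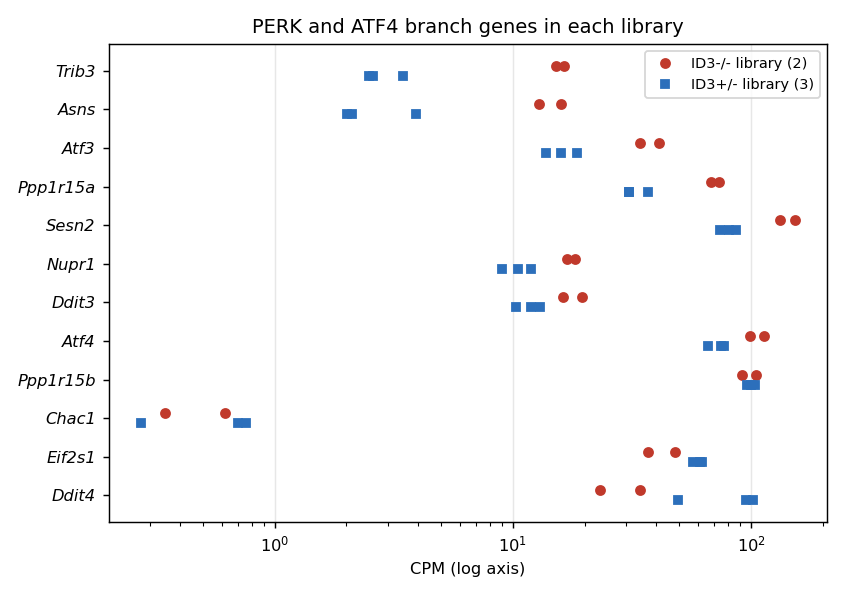
Level of the 12 genes of the PERK and ATF4 branch in each library, in CPM on a log axis, ordered by fold change. Red circles are ID3-/- and blue squares ID3+/- libraries; Trib3 and Asns show the widest gaps, with ID3-/- libraries at 12.9 CPM or more and ID3+/- libraries at 3.93 CPM or less.

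Other folding and glycan quality control genes had 1 higher and 6 lower of 19 tested, with a median of -0.40. Over all genes tested 6.41% were called higher and 10.0% lower. The oxidases that recharge disulphide isomerases, Ero1l (-0.82 ± 0.18, edgeR adjusted p = 0.0337) and Ero1lb (-1.35 ± 0.20, edgeR adjusted p = 0.0131), the isomerase-like Erp44 (-0.71 ± 0.12, edgeR adjusted p = 0.0192), the reductase Dnajc10 (-1.09 ± 0.14, edgeR adjusted p = 0.0103) and the folding sensor Uggt1 (-0.68 ± 0.12, edgeR adjusted p = 0.0207) fell. Erp29 rose (0.38 ± 0.09, edgeR adjusted p = 0.0366), and the glucosidase genes Ganab (-0.28 ± 0.09) and Mogs (0.11 ± 0.11) were not called. With length and GC offsets 1 was higher and 1 lower, Dnajc10 at -0.65, where 4.49% of all genes were higher and 4.72% lower. Lower calls numbered 2 without ID3-/- replicate 2, 3 without ID3-/- replicate 3, 1 without ID3+/- replicate 1 or without ID3+/- replicate 2, and 5 without ID3+/- replicate 3. Lower calls over all genes also fell in these fits, as given above, and the list's median stayed between -0.47 and -0.32.

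Other degradation genes had 2 higher and 2 lower of 20, with Aup1 (0.55 ± 0.09, edgeR adjusted p = 0.0168) and Selk (0.61 ± 0.12, edgeR adjusted p = 0.0237) up and Fam8a1 (-0.87 ± 0.20, edgeR adjusted p = 0.0355) and Ngly1 (-0.78 ± 0.19, edgeR adjusted p = 0.0401) down, and Nploc4 (0.21 ± 0.13) not called. Genes of targeting, signal peptide cleavage and N-glycosylation had 2 higher and 3 lower of 24 tested. Ddost (0.40 ± 0.09, edgeR adjusted p = 0.0366) and Dad1 (0.50 ± 0.12, edgeR adjusted p = 0.0415), subunits of the oligosaccharyltransferase, rose, while Srp72 of the signal recognition particle (-1.29 ± 0.19, edgeR adjusted p = 0.013), Spcs3 of the signal peptidase (-1.04 ± 0.15, edgeR adjusted p = 0.0123) and the catalytic subunit Stt3b (-0.53 ± 0.12, edgeR adjusted p = 0.0315) fell, and Rpn1 (-0.15 ± 0.09) and Rpn2 (0.10 ± 0.08) were not called. Among other sensors, their proteases and related factors, 1 of 13 tested was higher and 1 lower. They were Creb3 (0.50 ± 0.09, edgeR adjusted p = 0.0185) and Creb3l3 (-1.29 ± 0.24, edgeR adjusted p = 0.0217), a factor known from hepatocytes, whose marker sum was also lower in ID3-/- cells. Mbtps1, the protease that cuts ATF6 first, was not called (-0.12 ± 0.09), nor was Tmbim6, an inhibitor of IRE1 (-0.25 ± 0.08). The counts of these 3 lists stand beside 6.41% called higher and 10.0% lower over all genes tested. In none of the 3 lists did a gene keep its call whichever library was left out. With length and GC offsets 4.49% of all genes were called higher and 4.72% lower. In the lists the calls were then held by partly different genes, of which those uncalled before are named here after their values were seen. The degradation list had 2 higher, Selk (0.82) and Rnf139 (0.65), and 0 lower, while Aup1 (0.30), Fam8a1 (-0.54) and Ngly1 (-0.26) were not called. The translocation list had 3 higher, Dad1 (0.77), Stt3a (0.84) and Sec11a (0.58), and 2 lower, Srp72 (-0.89) and Spcs3 (-0.44), while Ddost (0.22) and Stt3b (-0.31) were not called. In the list of other sensors and related factors Creb3l3 stayed lower (-1.47) and Creb3 was not called (0.36).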

How the data were processed

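The authors deposited raw read counts per gene with HTSeq entries at the end, and per the submitters' processing notes the tools were HTSeq 0.5.4, DESeq 1.18.0 and R 3.1.2 with build mm9. The aligner, the annotation and the strand setting were not given in the sources used here. Of 46983 gene IDs, 46488 matched GENCODE M21, used for lengths, GC content, overlaps and copies (at least 95% identity over 100 bases), and since 37902 carry its exact version, made for a build newer than mm9, the build is uncertain. Entries naming no gene, 40.0% and 42.8% of the total in ID3-/- and 47.0% to 48.6% in ID3+/- libraries, were left out. Reads with several alignments were 32.3% and 34.1% of the aligned total in ID3-/- and 38.3% to 41.0% in ID3+/- libraries.

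Fits used edgeR 4.0.16 in R 4.3.3 (filterByExpr, TMM, quasi-likelihood test, 16436 genes, adjusted p under 0.05, 3 residual degrees of freedom, common biological coefficient of variation 0.339), ID3-/- minus ID3+/- without covariates, and were tested on simulated data. Levels are TMM-scaled CPM, and the SE is the log2 fold change over the square root of F. Members, role groups and lists were chosen with earlier results of these data known. Alternatives were limma-voom (limma 3.58.1), DESeq2 1.42.0, other scalings and filters, a robust fit, a minimum fold, a replicate block, length and GC offsets (mgcv 1.9.3) and leaving out each library. Every member is named; of each other list, up to 6 called genes by smallest p and the 2 most abundant uncalled ones, except 1 that is not reported here. Deviations from the group means correlated at -0.03 between the libraries numbered 2 and at -0.06 between those numbered 3. With 2 ID3-/- libraries their deviations are mirror images, so these values are not independent and do not settle whether same-numbered libraries are paired. Protein sequences were not used here, so the planned search for retention signals was not made.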

Additional observations from a re-analysis of the deposited data

How the results depend on the processing

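The 12 members called lower were the same genes under every other scaling, without a filter, with at least 1 CPM in 2 libraries, with a robust fit and with limma-voom, and DESeq2 called 13. Over all genes, lower calls in these fits numbered from 1439 (no filter) to 2520 (DESeq2). With length and GC offsets 7 members were lower, their median was -0.11 and 1513 genes were called. Requiring a log2 change of 1 or more in size left 6 members lower, 0 higher and 1267 genes. Members called higher numbered 6 with upper-quartile scaling (1443 over all genes), 5 with library size alone (1195) and 1 without a filter (843 of 25784 tested). They numbered 6 with at least 1 CPM in 2 libraries (1568 of 12217 tested) and 6 with DESeq2 (2061), which called 4581 genes in either direction. The main fit had 3 members higher, and 1054 of all 16436 genes tested. Upper-quartile scaling moved the members' median to -0.08 from -0.14 and that of all genes to 0.05 from -0.02. Leaving out 1 library gave 4 to 11 members lower, 0 to 5 higher, medians of -0.21 to -0.08 and 335 to 2540 genes called. With the replicate number as a replicate block, 1 gene was called and 0 members higher and 0 lower, while 3497 genes, 2 members higher and 12 lower, had an unadjusted p under 0.05. That fit has 1 residual degree of freedom, and the labels do not say what the numbers share. Each alternative was compared with the main fit only, and no value called in either of the 2 changed sign between them. Among members uncalled in the main fit and in the alternative compared, 14 changed sign in at least 1 alternative, all with a main log2 fold change between -0.38 and 0.29. Of them, 8 did so with length and GC offsets: Atf6, Txndc5, Sec61b, Ssr1, Ssr3, Herpud1, Edem1 and Os9. Ssr1 had 0.21 with these offsets, although DESeq2 called it lower. The cause of these shifts was not tested.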
